A study of Mus musculus with 16 samples.

Results

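Ccl27a, Alpk1, Gm8423 and Il11ra1 were followed in hippocampal RNA of 16 mice. Ccl27a, Alpk1 and Gm8423 were chosen by the size of their difference between WT and 3xTg mice in these same samples, and Il11ra1 was added for its position, on the opposite strand at the edge of Ccl27a. They are 4 of the 55335 genes of the count table, and all 4 are among the 16475 genes that passed the filter on low counts. Because their genotype difference was the reason for choosing them, Ccl27a, Alpk1 and Gm8423 are described by genotype without a test. Tests are given for the inhibitor, for Il11ra1, for neighbouring genes and for genes of the same pathways.

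Each of the 4 groups held 4 female mice aged 10 months, whose hippocampi were taken after a 28-day infusion into the cerebral ventricles. WT-D and 3xTg-D mice received the vehicle, 0.8% DMSO in artificial cerebrospinal fluid, and WT-S and 3xTg-S mice received 80 µM of the stearoyl-CoA desaturase (SCD) inhibitor CAY10566 in that vehicle. SCD makes monounsaturated from saturated fatty acids. Titles and treatment labels name the agent by its Cayman number, while a protocol text common to all samples names ab142089 in its place. 3xTg mice are an Alzheimer's disease model on a mixed B6;129 background that carries human APPSwe and tauP301L transgenes under a Thy1.2 element active in neurons. WT mice, labelled C57BL/6J x 129S1, were strain controls (B6129SF2/J) bought as a separate stock. The transgenes and any other inherited difference between the stocks therefore cannot be told apart in any comparison below of WT with 3xTg mice.

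Reads on genes numbered 15413385 to 23590149 per mouse, and replicate libraries differed by 3.78 to 45.2 times counting noise (chi-square per degree of freedom), so none was a copy. Levels are given as CPM, a gene's reads relative to its library's reads on genes that passed the filter, scaled between libraries. The genotype labels were checked with Thy1 and App. Thy1 had 517 to 626 CPM in the WT mice and 1566 to 2141 CPM in the 3xTg mice. App had 1497 to 1705 CPM in the WT mice and 2089 to 2628 CPM in the 3xTg mice. Mapt was not called in either treatment. With vehicle its means were 485 and 509.9 CPM in WT-D and 3xTg-D mice (log2 0.07, adjusted p = 0.576, ranges overlapping). With CAY10566 they were 446 CPM in WT-S mice against 531 CPM in 3xTg-S mice (log2 0.24, adjusted p = 0.249, ranges not overlapping). A gene is called here at an unadjusted edgeR p of 0.01 or less, and p adjusted over all tested genes are printed. All 7 hippocampal neuron markers were detected in every group, and their summed level was 6642 to 8298 CPM per mouse. Summed oligodendrocyte markers were 4267 to 5057 CPM in WT-D and 5531 to 6607 CPM in 3xTg-D, where 3 of 6 were called higher. All 3 had an adjusted p of 0.05 or less, and 4.91% of all tested genes were called with vehicle. The sums overlapped in the inhibitor groups. Mag and Cnp were called lower in 3xTg-S than in 3xTg-D mice (log2 -0.42 and -0.44, adjusted p = 0.722 for both). With vehicle, Vip, an interneuron marker, was called higher in 3xTg mice (log2 0.56, adjusted p = 0.0175) and Olig2, a marker of oligodendrocyte precursors, lower (log2 -0.52, adjusted p = 0.110). Summed choroid plexus markers had medians of 30.1 to 53.9 CPM in the groups but reached 731 CPM in a WT-D mouse and 291 CPM in a WT-S mouse, and Ttr, 1 of 4 tested, was called lower in the vehicle-treated 3xTg mice (log2 -4.89 ± 1.49, SE, adjusted p = 0.178). Blood markers overlapped between genotypes with CAY10566, at 30.2 to 43.6 CPM in WT-S mice and 31.3 to 126.5 CPM in 3xTg-S mice. There 3 of 5 were called higher, 0 of them at an adjusted p of 0.05 or less, while 4.26% of all tested genes were called. The part of any of these markers in the results below was not tested.

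Ccl27a encodes a chemokine, a small secreted protein that draws white blood cells along a gradient. CCL27 acts on the receptor CCR10, which it shares with CCL28, and is best known from skin. Il11ra1 encodes the receptor subunit that binds interleukin-11 and signals with gp130, the product of Il6st, through JAK kinases and STAT factors. ALPK1 is an alpha-kinase that senses a bacterial sugar nucleotide in the cytosol and phosphorylates the adaptor TIFA, which then engages TRAF6 and activates NF-kB. Gm8423 is annotated as a processed pseudogene, a copy of a spliced transcript inserted into the genome.

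The copy that Gm8423 most resembles was sought by aligning its 607 bases (GRCm38, chr8:40712681-40713287, minus strand) with all annotated mouse transcripts. The best match was Hmgb1, which encodes a chromatin protein that can also be released as an alarm signal, with 93.5% identity over 618 aligned bases, 26 mismatches and 14 gap bases. The first 236 bases of Gm8423 and the matching stretch of the Hmgb1-202 transcript (its bases 353 to 588), both from the first start codon, are shown because the reads of both genes must be told apart by such positions. Capitals mark the 11 bases at which they differ.
Gm8423 chr8:40713052-40713287: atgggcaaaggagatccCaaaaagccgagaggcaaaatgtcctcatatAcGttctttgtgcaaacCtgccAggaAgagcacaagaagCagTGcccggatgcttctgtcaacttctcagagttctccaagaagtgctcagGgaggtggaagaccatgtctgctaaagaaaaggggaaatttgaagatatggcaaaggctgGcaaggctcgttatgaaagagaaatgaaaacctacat
Hmgb1: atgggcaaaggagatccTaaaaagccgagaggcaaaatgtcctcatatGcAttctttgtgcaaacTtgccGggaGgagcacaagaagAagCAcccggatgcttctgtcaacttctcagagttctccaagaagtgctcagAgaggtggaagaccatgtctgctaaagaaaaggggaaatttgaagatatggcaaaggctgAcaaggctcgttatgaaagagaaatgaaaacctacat
Read from that start codon, Gm8423 reaches a stop after 104 codons, where Hmgb1 continues for 215. Of the 75-base stretches of Gm8423, the length of the sequencing kit's reads, 6.19% also occur in a transcript of another gene (Gm18194, Gm45315, Gm4587 or Gm8807). Reads that fit several places were not counted on any gene and made up 11.7% to 15.4% of all reads.

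Gm8423 was all but absent from WT mice and present in every 3xTg mouse. In WT-D mice 1 to 4 it had 2, 1, 0 and 1 reads, and in 3xTg-D mice 178, 222, 169 and 155. In WT-S mice it had 1, 0, 1 and 0 reads, and in 3xTg-S mice 142, 166, 131 and 124. No WT mouse came near any 3xTg mouse. The mean level was 9.13 ± 0.562 CPM (SD, n = 4) in 3xTg-D and 8.08 ± 1.08 CPM in 3xTg-S. With 4 reads over all WT-D mice against 724 in 3xTg-D, the CPM ratio was 192, with an exact 95% counting interval of 74.7 to 707. With 2 reads in WT-S against 563 in 3xTg-S the ratio was 323.5, with an interval of 89.1 to 2678. These intervals cover counting error only and are no test, since Gm8423 was chosen for this difference.

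Hmgb1 itself was lower in 3xTg mice without being called. Its level was 29.65, 44.0, 19.2 and 19.5 CPM in WT-D mice and 17.3, 19.8, 17.25 and 16.7 CPM in 3xTg-D mice, a log2 difference of -0.66 ± 0.24 (SE, adjusted p = 0.267). In WT-S mice it was 44.7, 42.2, 19.8 and 17.5 CPM and in 3xTg-S mice 16.55, 19.75, 16.3 and 15.5 CPM, a log2 difference of -0.88 ± 0.28 (SE, adjusted p = 0.240). WT mice 1 and 2 of each treatment were thus far above WT mice 3 and 4, which lay next to the 3xTg mice, and the group ranges overlapped. The difference was called without WT-D mouse 3 (log2 -0.81) or WT-D mouse 4 (log2 -0.81), and without WT-S mouse 3 (log2 -1.05) or WT-S mouse 4 (log2 -1.077). Added together, Hmgb1 and Gm8423 gave 19.2 to 44.0 CPM in WT-D mice against 25.1 to 29.1 CPM with the same vehicle in 3xTg-D mice. With CAY10566 the sum was 17.5 to 44.75 CPM in WT-S mice against 22.2 to 27.7 CPM in 3xTg-S mice. Gm8423 made up 28.6% to 36.1% of that sum in 3xTg mice and at most 0.284% in WT mice.

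**Figure D1:**
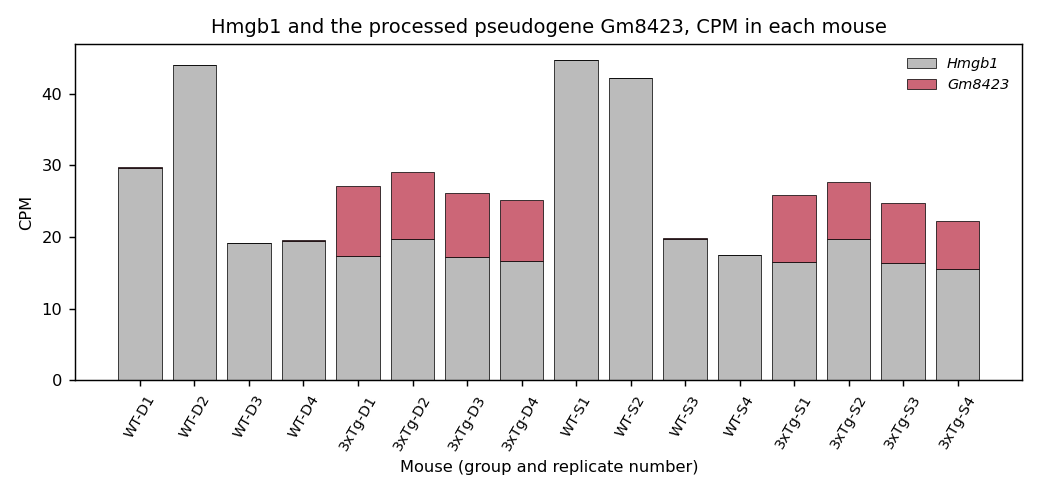
Stacked bars give the CPM of Hmgb1 (grey) and of Gm8423 (red) in each of the 16 mice, named by group and replicate number. Gm8423 is visible in the 8 3xTg mice only, and Hmgb1 is highest in WT mice 1 and 2 of each treatment.

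The table holds 53 other genes that align to Gm8423 with at least 90% identity over at least 80% of its length, all pseudogenes. Reads were absent from 3 of them, and 51 had fewer than 10 reads in every mouse. The 1 that could be tested, Gm46432, was not called in either genotype comparison (log2 0.66 ± 0.57 with vehicle and 1.02 ± 0.84 with CAY10566). It is named here after its values were seen.

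Ccl27a (GRCm38, chr4:41769467-41774247, minus strand) was lower in every 3xTg mouse. It had 402, 314, 335 and 368 reads in WT-D mice against 33, 52, 37 and 39 in 3xTg-D mice, and 311, 290, 377 and 310 in WT-S mice against 26, 28, 20 and 39 in 3xTg-S mice. The ranges of WT and 3xTg mice were far apart in both treatments. Mean CPM with vehicle was 16.9 ± 1.52 in WT-D mice and 2.02 ± 0.167 in 3xTg-D mice, and with CAY10566 15.9 ± 1.32 in WT-S mice and 1.61 ± 0.381 in 3xTg-S mice (SD, n = 4). The 3xTg level was 11.96% of the WT level with vehicle and 10.1% with CAY10566, and the fitted log2 differences were -3.055 ± 0.11 and -3.32 ± 0.16 (SE). Over all tested genes, 8.17% had groups that did not overlap with vehicle and 6.75% with CAY10566, but Ccl27a was chosen for this gap and nothing is read from its place among them.

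Il11ra1 (chr4:41699989-41769474, plus strand) ends inside the Ccl27a annotation, and their exons share 8 bases. It did not follow Ccl27a. Its reads were 222, 185, 196 and 196 in WT-D mice against 157, 268, 172 and 143 in 3xTg-D mice. With CAY10566 they were 199, 178, 178 and 173 in WT-S mice against 120, 172, 149 and 142 in 3xTg-S mice. The ranges overlapped in CPM in every comparison, with means of 9.52 ± 0.498 and 9.198 ± 1.47 CPM with vehicle and 9.03 ± 0.583 and 8.32 ± 0.861 CPM with CAY10566, WT mice first (SD, n = 4). The genotype difference was -0.04 on the log2 scale with vehicle (95% interval -0.31 to 0.22, adjusted p = 0.916) and -0.13 with CAY10566 (-0.38 to 0.11, adjusted p = 0.723). It was not called, while 4.91% of tested genes were called with vehicle and 4.26% with CAY10566. The intervals end far from the difference seen in Ccl27a.

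The ratio of Ccl27a to Il11ra1 reads within a mouse was 1.70 to 1.88 in WT-D mice against 0.194 to 0.273 in 3xTg-D mice with vehicle. With CAY10566 it was 1.56 to 2.12 in WT-S mice against 0.134 to 0.275 in 3xTg-S mice. Corrected for exon length, the Ccl27a level exceeded the Il11ra1 level in every WT mouse, by 2.94 to 3.98 times, and fell below it in every 3xTg mouse, at 0.253 to 0.517 times. The strand setting of the counting is not given in the sources used here, so the few reads in the shared bases could belong to either gene. Both genes have near-identical copies on chromosome 4. Of the 75-base stretches of Ccl27a, 33.3% also occur in Ccl27b, Gm13306, Gm20878, Gm21586 or Gm21953, and of those of Il11ra1, 35.9% occur in Gm13305 or Il11ra2. Ccl27b and Il11ra2 had 0 reads in all 16 mice. Levels of Ccl27a and Il11ra1 therefore rest on the parts of each gene that are unique in the reference genome, and whether the mice carry the copies of that genome was not tested.

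**Figure D2:**
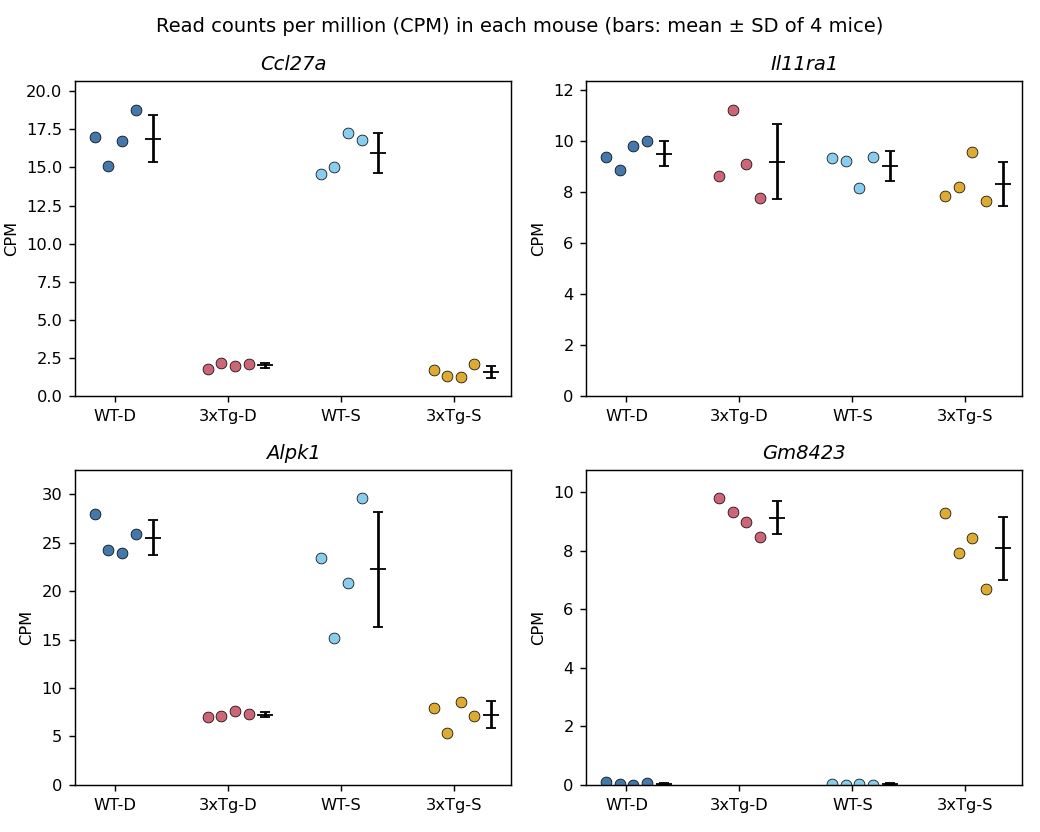
Each panel gives the CPM of a gene in the 4 mice of each group as points, with the mean ± SD beside them. Ccl27a and Alpk1 are lower and Gm8423 higher in all 3xTg mice, while the groups overlap for Il11ra1.

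Alpk1 (chr3:127670310-127780527, minus strand) was lower in every 3xTg mouse as well. It had 662, 505, 479 and 507 reads in WT-D against 127, 169, 143 and 135 in 3xTg-D, and 498, 293, 454 and 545 in WT-S against 122, 113, 133 and 132 in 3xTg-S. WT-S mouse 2 was the lowest of the WT mice and still above every 3xTg mouse. Mean CPM with vehicle was 25.5 ± 1.84 in WT-D mice and 7.25 ± 0.274 in 3xTg-D mice, and with CAY10566 22.2 ± 5.97 in WT-S mice and 7.26 ± 1.375 in 3xTg-S mice (SD, n = 4). The 3xTg level was 28.4% of WT with vehicle and 32.6% with CAY10566, with fitted log2 differences of -1.81 ± 0.08 and -1.635 ± 0.20 (SE). No 75-base stretch of Alpk1 occurs in another gene's transcript, and its exons overlap no other gene.

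Per kilobase of exon, the order of the levels in WT-D was Ccl27a (7.11 ± 0.639 CPM per kb), Alpk1 (3.72 ± 0.267), Il11ra1 (2.13 ± 0.112) and Gm8423 (0.0756 ± 0.0573). In 3xTg-D it was Gm8423 (15.04 ± 0.926 CPM per kb), Il11ra1 (2.06 ± 0.329), Alpk1 (1.06 ± 0.0399) and Ccl27a (0.850 ± 0.07005). These levels count whole exons, including the parts of Ccl27a and Il11ra1 in which reads cannot be placed, and are a description with no test. Over the 75-base stretches found in no other gene, a measure added after the data were seen, the order in WT-D mice was the same, with Alpk1 at 3.63 ± 0.261 and Il11ra1 at 3.10 ± 0.1625 CPM per 1000 stretches. In 3xTg-D mice the last places turned, with Ccl27a at 1.07 ± 0.0879 and Alpk1 at 1.03 ± 0.03905 CPM per 1000 stretches, a gap within their SDs, so these levels have no order.

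Sorted by the evidence for a vehicle genotype difference, Thy1 stood first of all tested genes, Gm8423 at place 2, Ccl27a at 3, Serpina3n at 4 and Alpk1 at 5, followed by Pcdhga11 (log2 -2.73). Il11ra1 stood at place 13038. These places only describe how the genes were chosen.

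None of the 4 genes was called for an effect of CAY10566. In WT mice the log2 effect (WT-S minus WT-D) was -0.08 for Ccl27a (95% interval -0.28 to 0.12), -0.08 for Il11ra1 (-0.28 to 0.13) and -0.20 for Alpk1 (-0.56 to 0.15), each with an adjusted p of 0.9996. No fold is given for Gm8423 there, since both groups together had 6 reads. In 3xTg mice (3xTg-S minus 3xTg-D) it was -0.33 for Ccl27a (-0.78 to 0.12, adjusted p = 0.728), -0.15 for Il11ra1 (-0.44 to 0.15, adjusted p = 0.762), -0.00493 for Alpk1 (-0.32 to 0.31, adjusted p = 0.994) and -0.18 for Gm8423 (-0.44 to 0.08, adjusted p = 0.730). All of these intervals include 0, and the widest, that of Ccl27a in 3xTg mice, reaches -0.78. Few genes of the table were called by CAY10566, 0.188% of those tested in WT mice and 0.904% in 3xTg mice, with 0 passing an adjusted threshold of 0.05 in edgeR in either (371 and 1043 genes had an unadjusted p under 0.05). With mice paired by replicate number (replicate block), 115 genes in place of 31 were called in WT mice, and in 3xTg mice 1133 in place of 149, where the numbers do not pair the mice by the check used. With the block none of the 4 genes was called for CAY10566 in 3xTg mice. In WT mice Ccl27a, Il11ra1 and Alpk1 were not called with the block, and Gm8423 was not examined.

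The genotype by CAY10566 interaction, (3xTg-S minus 3xTg-D) minus (WT-S minus WT-D), was not called for Ccl27a (log2 -0.25 ± 0.19, SE), Il11ra1 (-0.07 ± 0.16) or Alpk1 (0.19 ± 0.23). Adjusted p was 0.788, 0.909 and 0.833. Over all genes 0.595% were called.

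**Figure D3:**
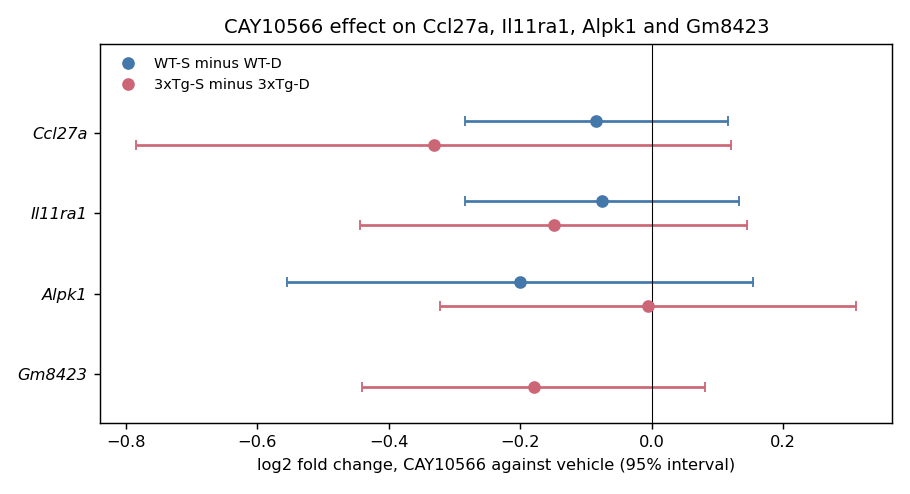
Points are the log2 fold change of each gene with CAY10566 against vehicle in WT mice (blue) and 3xTg mice (red), with 95% intervals from the edgeR fit. All intervals include 0, and Gm8423 is shown in 3xTg mice only because WT mice had almost no reads.

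Partners of Ccl27a were examined next. Ccr10, the receptor of CCL27 and CCL28, had 0 to 3 reads in every mouse, too few to compare by edgeR (exact two-sided permutation p = 0.0286 with vehicle, the smallest that 4 mice against 4 can give, on 2 reads in WT-D and 5 in 3xTg-D mice). With CAY10566 the direction was opposite, on 10 reads in WT-S mice against 5 (exact permutation p = 0.257), and the inhibitor comparisons gave p = 0.0286 in WT and 0.771 in 3xTg mice by the same exact test. Ccl28, the other ligand of CCR10 (chr13:119623819-119654359), fell in 3xTg mice in both comparisons. It had 76, 156, 116 and 84 reads in WT-D against 14, 5, 1 and 3 in 3xTg-D, and 99, 118, 93 and 78 in WT-S against 5, 9, 1 and 5 in 3xTg-S. The groups did not overlap. Its log2 difference was -4.12 ± 0.50 with vehicle (adjusted p = 0.00158) and -4.08 ± 0.325 with CAY10566 (adjusted p = 7.81e-05). Both ligands of CCR10 were thus lower in all 8 3xTg mice. Ccl27a was chosen for that difference, and Ccl28 was listed as its partner with earlier results of these data known, so they are not independent of each other as evidence.

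Among 26 other chemokines 12 could be tested. With vehicle 1 was called, Cxcl12, a ligand of CXCR4, which was lower (log2 -0.21 ± 0.06, adjusted p = 0.149). That call was lost on leaving out any of WT-D mice 2, 3 or 4 or 3xTg-D mice 1, 3 or 4 (log2 -0.21 to -0.18). With CAY10566 Cxcl12 was lower without a call (log2 -0.18 ± 0.09, adjusted p = 0.560), and its interaction was not called (0.04 ± 0.11, adjusted p = 0.921). With CAY10566 2 were called. Cxcl5, a neutrophil attractant, was lower in 3xTg-S than in WT-S (4 to 5 against 14 to 28 reads, log2 -1.91 ± 0.36, adjusted p = 0.0284) and lower in 3xTg-S than in 3xTg-D (9 to 17 reads, log2 -1.30 ± 0.32, adjusted p = 0.722). Cxcl13, a B cell attractant, was higher in 3xTg-S than in WT-S (log2 3.24 ± 0.90, adjusted p = 0.1501), at 18 to 111 against 0 to 14 reads. Without 3xTg-S mouse 1, which had the 111 reads, its log2 difference was 2.10 and it was not called, and the call was also lost without WT-S mouse 1 (log2 2.88), 2 (2.84) or 3 (3.33). With vehicle both had the same direction without a call, Cxcl5 at log2 -0.52 ± 0.36 (adjusted p = 0.603) and Cxcl13 at 2.38 ± 0.85 (adjusted p = 0.270). The interaction was not called for Cxcl5 (-1.38 ± 0.53, adjusted p = 0.788) or Cxcl13 (0.87 ± 1.49, adjusted p = 0.877).

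Of 20 chemokine receptors 8 could be tested. Ccr6, the receptor of CCL20, was nearly absent from 3xTg mice, with 0, 3, 0 and 0 reads in 3xTg-D and 1, 1, 0 and 0 in 3xTg-S, against 10 to 40 reads in WT-D mice and 26 to 43 in WT-S mice. The WT to 3xTg ratio was 36.4 with vehicle (exact 95% counting interval 12.2 to 179) and 58.3 with CAY10566 (15.8 to 486). These intervals pool the reads of a group and cover counting error only, not the spread between mice. Adjusted p was 0.00746 and 0.000252 by edgeR. Ccr1, a receptor of inflammatory CC chemokines, rose with vehicle from 2 to 20 reads in WT-D to 29 to 107 in 3xTg-D (log2 2.53 ± 0.48, adjusted p = 0.0259) and with CAY10566 from 2 to 10 reads to 21 to 57 (3.03 ± 0.45, adjusted p = 0.00778). Reference positions are chr17:8236043-8257141 for Ccr6 and chr9:123962124-123968692 for Ccr1. Summed T and B cell markers were 0.385 to 3.675 CPM in all mice, and summed microglial markers overlapped between the groups, at 338 to 589 CPM in WT-D mice against 405 to 749 CPM in 3xTg-D mice and 343 to 442 CPM in WT-S mice against 332 to 496 CPM in 3xTg-S mice. Fewer cells of a type and less RNA per cell cannot be told apart in RNA of whole hippocampus.

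The interleukin-11 pathway held no called gene in either genotype comparison. Of all tested genes 4.91% were called with vehicle and 4.26% with CAY10566, so lists this short can hold no call at that share. Il6st, which encodes gp130, had 82.2 to 101 CPM in all mice and log2 genotype differences of 0.04 ± 0.05 (adjusted p = 0.795) and 0.07 ± 0.07 (adjusted p = 0.779). Il11 had 2 to 11 reads per mouse and was below the filter, with 32 reads in WT-D and 12 in 3xTg-D (exact permutation p = 0.0571) and 18 and 15 with CAY10566 (p = 0.943). None of 4 tested cytokines of the family, 6 receptors and 8 JAK and STAT genes was called, and the median log2 differences were -0.02, 0.12 and -0.05 with vehicle and 0.02, 0.08 and 0.10 with CAY10566.

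Of 16 genes on the route from ALPK1 to NF-kB, all tested, Tifa alone was called by genotype. That is 1 of 16 in each treatment, where 4.91% of all tested genes were called with vehicle and 4.26% with CAY10566. The median log2 difference over the 16 was -0.05 with vehicle and -0.01 with CAY10566. Tifa, the adaptor that ALPK1 phosphorylates, had 437, 337, 338 and 293 reads in WT-D against 193, 321, 182 and 139 in 3xTg-D, and 380, 315, 403 and 250 in WT-S against 130, 193, 121 and 114 in 3xTg-S. In CPM the groups did not overlap. It was lower by a log2 difference of -0.68 ± 0.15 with vehicle (adjusted p = 0.0582) and -1.08 ± 0.15 with CAY10566 (adjusted p = 0.00402), and CAY10566 moved it in 3xTg mice by -0.39 ± 0.18 without a call (adjusted p = 0.722, interaction adjusted p = 0.788). Traf6, the ubiquitin ligase that TIFA recruits, had log2 differences of -0.04 ± 0.06 (adjusted p = 0.832) and 0.12 ± 0.07 (adjusted p = 0.620). None of 7 tested feedback targets of NF-kB and none of 4 other alpha-kinase genes was called in either comparison. Tifa shares 105 exon bases with Gm43654 on the other strand, and 35 of its 3188 stretches of 75 bases occur there.

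Pooled over these lists, 109 genes other than the 4 were listed and 66 tested. With vehicle 5 were called (1 higher, 4 lower, 7.58%) and with CAY10566 6 (2 higher, 4 lower, 9.09%), against 4.91% and 4.26% of all tested genes. The lists were drawn up with earlier results of these data known, and Tifa, among the called genes, lies near Alpk1. The shares are therefore a description and no independent test of the pathways. The inhibitor called 0 in WT mice and 1 in 3xTg mice, Cxcl5, and the interaction 0. Another 42 listed genes were below the filter, and 1 was not analysed here. Of the 42, 31 had 3 or more reads in a mouse and were compared by exact permutation. Besides Ccr10, the smallest possible p of 0.0286 was reached by Ccl4 between genotypes with vehicle and by Ccl24 between genotypes with CAY10566. Ccl24, Cxcl9 and Cntf reached it for CAY10566 in WT mice. They are named after their values were seen, and that p cannot reach the threshold for a call.

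**Figure D4:**
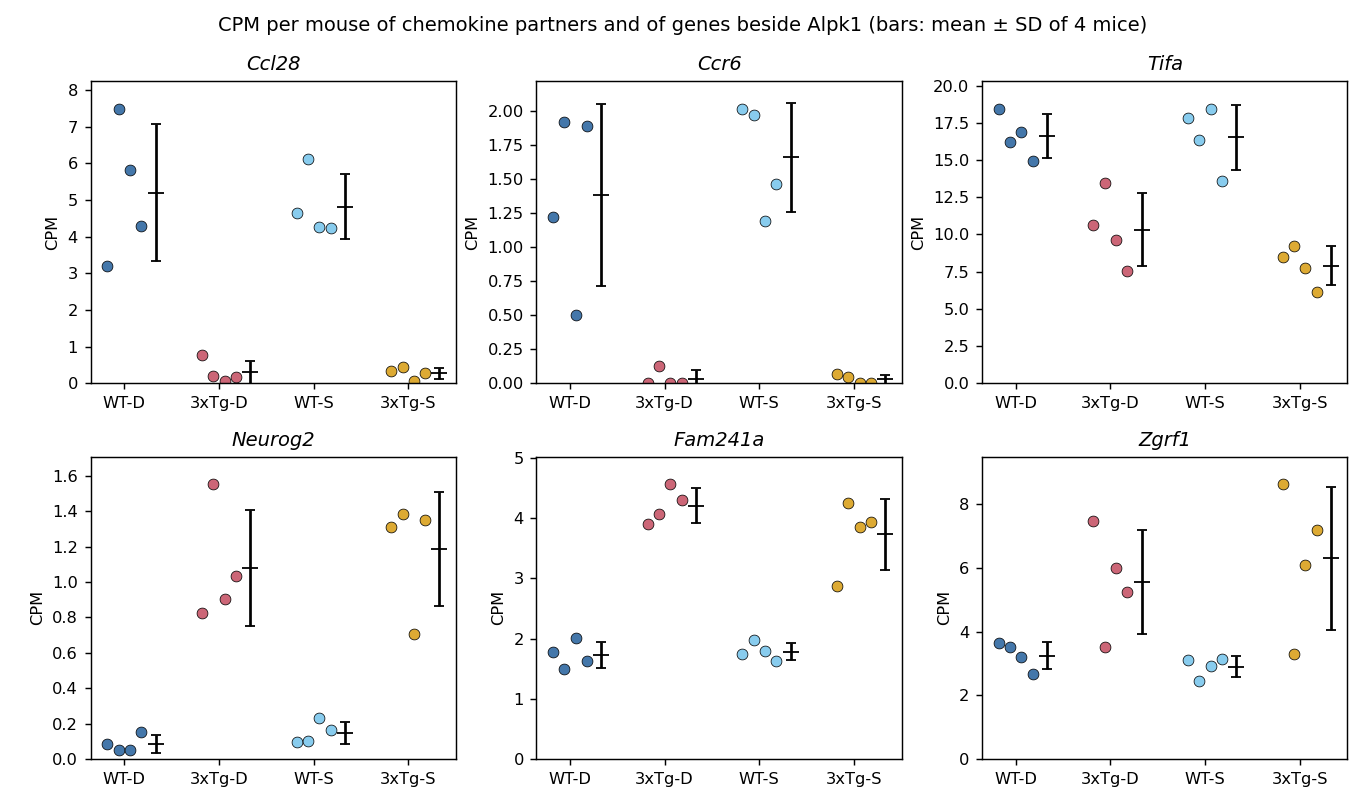
Points give the CPM of each mouse for Ccl28, Ccr6, Tifa, Neurog2, Fam241a and Zgrf1, with the mean ± SD of 4 mice beside them. Ccl28, Ccr6 and Tifa are lower in 3xTg mice and Neurog2 and Fam241a higher, without overlap in either treatment, while Zgrf1 overlaps with vehicle.

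Tifa is also a neighbour of Alpk1, so the genes around each locus were compared. Within 1 Mb of Alpk1 13 genes were tested. With vehicle 5 were called (38.5%) and with CAY10566 5 (38.5%), against 4.91% and 4.26% of all genes, and 4 of them in both and in the same direction. These 4 were Zgrf1, Neurog2, Tifa and Fam241a, whose lower coordinates lie at -117, -37.2, 119.5 and 199 kb from that of Alpk1. At an adjusted p of 0.05 or less, 2 and 3 remained called.

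Neurog2, a proneural transcription factor, had 2, 1, 1 and 3 reads in WT-D against 15, 37, 17 and 19 in 3xTg-D, and 2, 2, 5 and 3 in WT-S against 20, 29, 11 and 25 in 3xTg-S. Its levels were low throughout but did not overlap, with log2 differences of 3.62 ± 0.41 (adjusted p = 0.00108) and 2.94 ± 0.38 (adjusted p = 0.00321). Fam241a had 31 to 42 reads in WT-D against 71 to 97 in 3xTg-D and 30 to 39 in WT-S against 44 to 89 in 3xTg-S, with log2 differences of 1.29 ± 0.14 (adjusted p = 0.000951) and 1.05 ± 0.18 (adjusted p = 0.0139). Zgrf1, a helicase of DNA repair, had 52 to 86 reads against 84 to 136 with vehicle (log2 0.765 ± 0.21, adjusted p = 0.137) and 47 to 66 against 69 to 133 with CAY10566 (1.09 ± 0.26, adjusted p = 0.07805). Its vehicle call was lost without WT-D mouse 3 (log2 0.755), WT-D mouse 4 (0.67), 3xTg-D mouse 1 (0.59) or 3xTg-D mouse 3 (0.72). Genes higher and lower in 3xTg mice thus lay side by side around Alpk1.

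The remaining calls near Alpk1 were made in 1 treatment each. Camk2d, a subunit of calcium/calmodulin-dependent kinase II, whose lower coordinate lies at -1074 kb, was lower with vehicle (log2 -0.37 ± 0.08, adjusted p = 0.0553) and not called with CAY10566 (-0.08 ± 0.11, adjusted p = 0.831). Whether the treatments differ was tested as the interaction, which was not called (log2 0.30 ± 0.15, adjusted p = 0.788). The long non-coding RNA Gm16958 was higher with CAY10566, at 11 to 18 against 6 to 9 reads (log2 0.995 ± 0.315, adjusted p = 0.226). That call was lost without any of the WT-S mice or 3xTg-S mice 1, 2 or 3 (log2 0.85 to 1.11), and Gm16958 shares 182 exon bases with Ank2 on the other strand.

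Around Ccl27a and Il11ra1 26 genes were tested, and 1 was called with vehicle (3.85%) and 0 with CAY10566. The 1 was Myorg, a glycosidase gene at -274 kb from Ccl27a (log2 0.255 ± 0.08, adjusted p = 0.190). Its call was lost without WT-D mouse 1 (0.23) or 4 (0.19) or 3xTg-D mouse 2 (0.21), 3 (0.24) or 4 (0.27). On the far side of Ccl27a, where its copies lie, 46 genes begin within 1 Mb, and none passed the filter, with at most 11 reads in any mouse. Around Gm8423 12 genes were tested, and the pseudogene Gm5345 was called with vehicle (8.33%), at 6 to 10 against 11 to 27 reads (log2 1.18 ± 0.29, adjusted p = 0.0808), and 0 with CAY10566. None of the neighbours at any of these loci was called for CAY10566 in WT mice, in 3xTg mice or for the interaction, where edgeR called 0 of 51 in each.

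**Figure D5:**
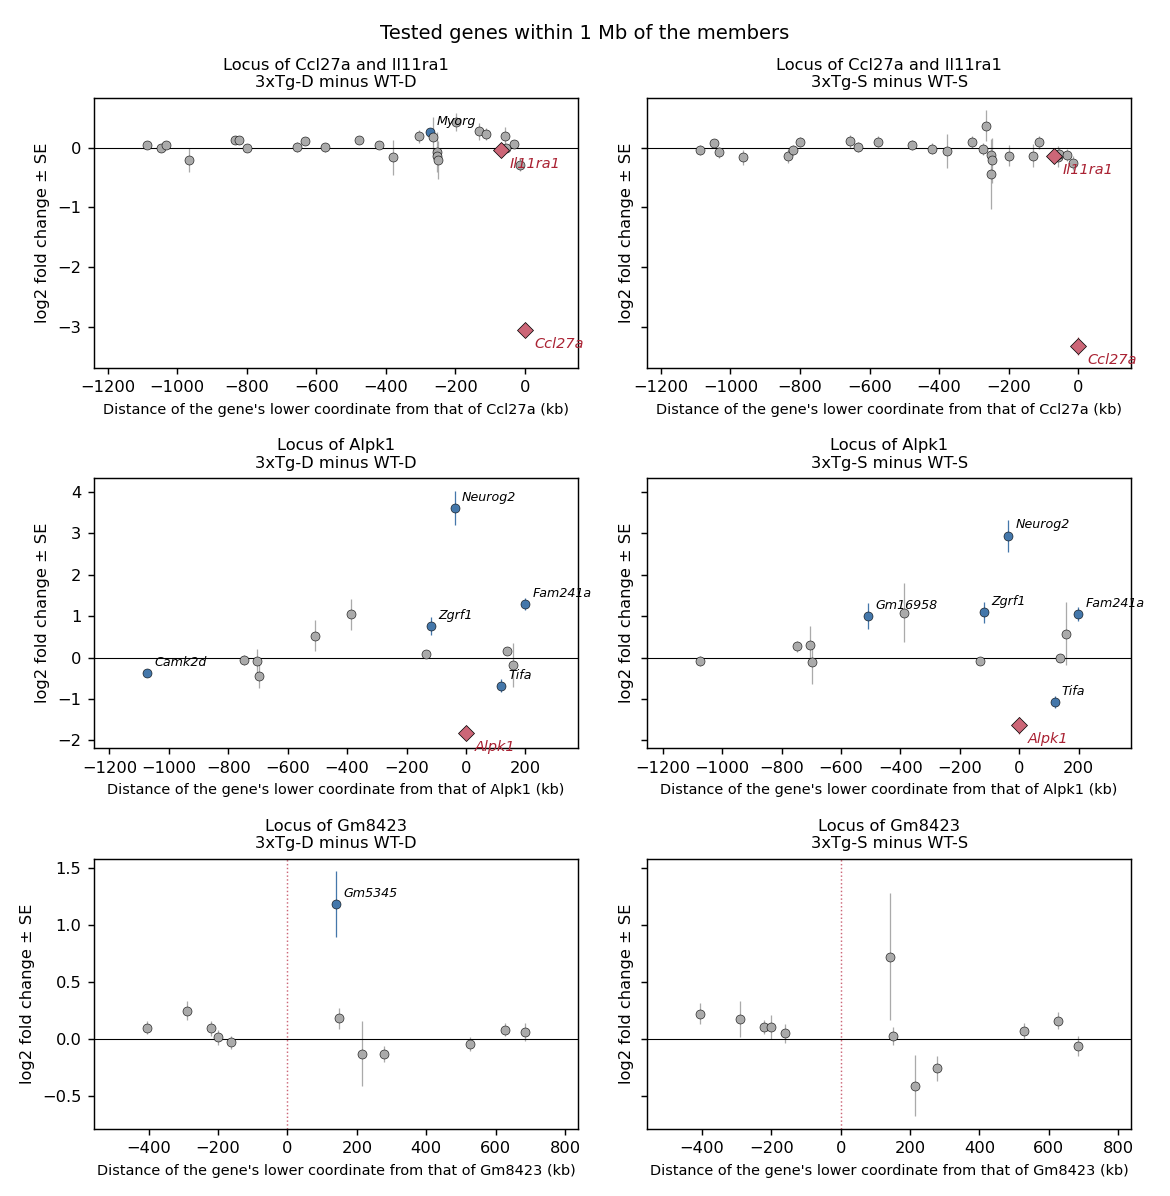
Each point is a tested gene within 1 Mb of Ccl27a and Il11ra1 (top), Alpk1 (middle) or Gm8423 (bottom), placed by its distance in kb, with its log2 difference ± SE between 3xTg and WT mice with vehicle (left) and CAY10566 (right). Blue points are called genes, red diamonds are Ccl27a, Il11ra1 and Alpk1, and the dotted line marks Gm8423, whose ratio is given in the text. Called genes surround Alpk1, while of the genes around Ccl27a and Il11ra1 only Myorg is called, with vehicle.

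The 250 bases before the annotated start are shown for Alpk1 and for Ccl27a, the protein-coding genes chosen for their loss in 3xTg mice, as RefSeq gives them for GRCm38. They were searched on both strands for an NF-kB motif (GGG, 2 bases of any kind, then TTTCC) and a STAT motif (TTCNNNGAA), which end the pathways above and occur in 1.41% and 7.02% of 32851 such promoters. Capitals mark a match.
Alpk1 chr3:127780528-127780777, minus strand: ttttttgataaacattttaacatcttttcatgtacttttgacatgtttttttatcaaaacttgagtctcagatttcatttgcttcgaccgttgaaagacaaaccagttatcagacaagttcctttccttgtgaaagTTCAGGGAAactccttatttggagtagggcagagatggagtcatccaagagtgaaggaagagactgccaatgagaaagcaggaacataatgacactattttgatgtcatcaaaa
Ccl27a chr4:41774102-41774351, minus strand: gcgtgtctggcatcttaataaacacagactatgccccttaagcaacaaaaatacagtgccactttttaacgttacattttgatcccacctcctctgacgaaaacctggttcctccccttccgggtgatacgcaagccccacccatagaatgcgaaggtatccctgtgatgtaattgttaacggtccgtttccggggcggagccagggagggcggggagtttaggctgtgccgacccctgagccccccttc
Alpk1 held 1 STAT match and no NF-kB match. Neither motif was found in the 3 promoters listed for Ccl27a, the 2 of Il11ra1, the 2 of Tifa or those of Neurog2 and Fam241a.

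Among the 4 genes the correlation of log2 CPM over the 16 mice was 0.96 for Ccl27a with Alpk1, -0.99 for Ccl27a with Gm8423 and -0.95 for Alpk1 with Gm8423, and between -0.30 and 0.35 for pairs with Il11ra1. These values mostly restate the split between genotypes for which the genes were chosen. With each group's mean subtracted, all 6 pairs were between -0.22 and 0.22. Pairs with Gm8423 include WT mice in which it had at most 2 reads, so they rest partly on single reads. The genes most like Ccl27a over all mice were Gpr137b-ps (r = 0.99), Gm50350 (0.99), Gm15610 (0.99), Rps13-ps1 (0.99) and Gm8423 (-0.99). Those most like Alpk1 were Thy1 (-0.98), Esd (-0.97), Tma7 (-0.97), Atp13a4 (0.97) and Pcdhga11 (0.97). Those most like Gm8423 were Gm50350 (-0.995), Gm15610 (-0.995), Gm47240 (0.99), Rpl34 (0.99) and Serpina3n (-0.99).

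Il11ra1 was most like Tmem154 (r = 0.86), Tcn2 (0.83), Khdrbs2 (0.83), Hist1h1c (0.82) and Dhrs3 (0.81). After group means were subtracted, the closest genes were Tsr1 (-0.93), Gm8034 (0.90), Gapdh (-0.90), Aldh1b1 (-0.89) and Vps45 (-0.87) for Ccl27a, and Khdrbs2 (0.87), Zfand4 (0.86), Gm17435 (-0.82), Tmem154 (0.81) and Lmcd1 (0.81) for Il11ra1. For Alpk1 they were Gm20033 (0.93), Cep112 (0.92), 4930539J05Rik (0.92), Rab10os (0.90) and Nkain3 (0.90), and for Gm8423 Lrp8os3 (0.89), Cwf19l2 (0.82), Zfp575 (-0.82), Stard6 (0.81) and Dcaf12l2 (0.80). Gm8423 had at most 2 reads in any WT mouse, so its deviations there come from single reads and weigh heavily in its list. These are the most extreme correlations over all tested genes, the mice share group and treatment, and no test was made.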

How the data were processed

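The authors trimmed single-end reads of hippocampal mRNA with Trimmomatic 0.35, aligned them with STAR 2.5.1b to GRCm38 (Gencode M23) and deposited raw read counts per gene without normalization. Strand setting and any use of molecular identifiers are not given in the sources used here. The 4 lines that name no gene were left out of library sizes and tests; ambiguous reads were 0.972% to 1.13% and reads outside genes 7.82% to 15.1% of uniquely placed reads. Counts were filtered with filterByExpr (minimum count 10, minimum total 15; 16475 of 33942 genes with a count), normalized by TMM and compared pairwise by edgeR 4.0.16's quasi-likelihood test in R 4.3.3 (two-sided, Benjamini-Hochberg adjustment over all tested genes). The threshold for a call, p at or below 0.01 before adjustment, follows the methods of the paper. The interaction was fitted to all 16 mice. The fits were tested on simulated data. CPM are scaled to the TMM-adjusted library size over the genes that passed the filter. Listed genes under the filter with 3 or more reads in a mouse were compared by exact permutation tests.

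The genes, lists and tests were chosen with earlier results of these data known. Some items of the lists and labels are not reported here. Named were the 4 genes, their direct partners, tested neighbours called in either genotype comparison, list genes called in any comparison, the best alignment to Gm8423 (BLAST 2.17.0) and the 5 genes most correlated with each. Exon lengths, overlaps, strands and transcripts came from Gencode M21 on the same build, promoters from RefSeq (GRCm38). Replicate numbers 1 to 4 of the labels were checked as pairs by correlating deviations from group means: over all comparisons same-numbered mice gave r of -0.10 to 0.50, with 11 of 16 over 0.1, and every pair exceeded 0.1 only between WT-D and WT-S, where the pairing comes from the data and not from the labels. Alternatives were edgeR with median-ratio factors, other filters, DESeq2 1.42.0, all 16 mice in the fit, the replicate block, windows of 0.5 and 2 Mb, the adjusted threshold and each mouse left out.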

Additional observations from a re-analysis of the deposited data

Results flagged for a closer look

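Over 21 named genes, 81 groups of 4 mice were checked for a mouse standing apart by Dixon's test at the 95% level, and 5 were found; chance gives about 1 in 20. Il11ra1 in WT-S mouse 3 was 8.16 CPM, against 9.22 to 9.39 CPM in the other WT-S mice. Neurog2 in 3xTg-S mouse 3 was 0.7065 CPM, against 1.31 to 1.38 CPM. Ccr6 in 3xTg-D mouse 2 was 0.126 CPM, against 0 in the others. Cxcl13 was 27.1 CPM in 3xTg-D mouse 2, against 2.60 to 4.69 CPM, and 7.26 CPM in 3xTg-S mouse 1, against 0.972 to 1.48 CPM. None of the 21 genes was called for the genotype by CAY10566 interaction.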

How the results depend on the processing

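No alternative called Ccl27a, Il11ra1 or Alpk1 for CAY10566 or the interaction, Gm8423 for CAY10566 in 3xTg mice, or Il11ra1 by genotype. Under the alternatives Gm8423 was not examined in WT mice or for the interaction. By edgeR or DESeq2, the smallest unadjusted p among 160 such values of the inhibitor was 0.0183 (adjusted p at least 0.338). Among 28 genotype values of Il11ra1 it was 0.110. With each mouse left out, the log2 genotype difference of Ccl27a was -3.11 to -3.01 with vehicle and -3.48 to -3.23 with CAY10566, that of Alpk1 -1.84 to -1.77 and -1.78 to -1.475, and the Gm8423 ratio 146 to 276 and 246 to 476.5. Uncalled values that changed sign as mice were left out ranged over log2 -0.16 to 0.021 for Il11ra1 with vehicle (positive without 3xTg-D mouse 4), -0.16 to 0.029 for the Il11ra1 interaction, -0.10 to 0.12 for Alpk1 under CAY10566 in 3xTg mice, -0.10 to 0.027 for Myorg and -0.14 to 0.013 for Camk2d with CAY10566.

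With the replicate block, neighbours called with vehicle numbered 2 near Ccl27a and 2 near Gm8423, and with CAY10566 1 near Gm8423, in place of 1, 1 and 0. No examined call on the 4 genes changed. Over all genes the block called 944, 1339, 1133 and 624 in place of 809, 702, 149 and 98 for the genotype comparisons, CAY10566 in 3xTg mice and the interaction. Near Ccl27a and Il11ra1, the vehicle count of 1 became 0 with all 16 mice in the fit, 0 at the adjusted threshold, 2 at 2 Mb and 0 to 2 with a mouse left out (0 without WT-D mouse 1 or 4 or 3xTg-D mouse 3, 2 without WT-D mouse 3), and the CAY10566 count of 0 became 3 at 2 Mb. Near Alpk1 the 5 and 5 became 8 and 8 at 2 Mb and 2 and 3 at the adjusted threshold, and with at least 10 counts in every mouse, which leaves 14293 genes tested, 3 with CAY10566. Near Gm8423 the vehicle count of 1 became 2 without a filter (33942 genes), 0 with at least 10 counts, 2 with DESeq2, 0 with all 16 mice, 2 at 2 Mb, 0 at the adjusted threshold and 1 to 3 with a mouse left out (2 without WT-D mouse 2 or 3xTg-D mouse 1, 3 without 3xTg-D mouse 4), and the CAY10566 count of 0 became 1 without a filter, 1 with all 16 mice and 0 to 1 with a mouse left out (1 without WT-S mouse 2). The cause was not tested. A window of 2 Mb can hold more tested genes than 1 of 1 Mb, and the share called in it was not computed. Counts at 2 Mb therefore do not show whether calls became more or less frequent. A ratio for Gm8423 was computed with TMM, median-ratio factors and no filter only, since the other fits give it no ratio and at least 10 counts in every mouse removes it. Settings for Ccl28, Ccr6, Ccr1, Cxcl5, Cxcl12, Cxcl13 and Hmgb1 were chosen after seeing the data; of their values and those of the neighbours, 366 of 417 kept direction and side of the threshold.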
